A study of Mus musculus with 3 samples.

Results

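The L1 ChIRP peaks of mouse chromosome 4 numbered 1528 of the 24666 peaks in the list, or 6.19%. They were chosen as every peak whose chromosome is 4, and were divided by peak midpoint at 76 Mb (mm9) into a proximal side, towards the centromere, with 1009 peaks and a distal side with 519. Coordinates of mouse chromosomes start at the centromeric end. The chromosome and its boundary were chosen by measured values of the same list, its number of peaks per Mb on either side and its long distal peak-free stretch. The difference in density between the sides, the long distal gaps and the early accumulation of peaks are therefore given as description. They support nothing by themselves.

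The series compared the RNA of the L1 retrotransposon with Malat1 RNA in E14 cells, an established line of mouse embryonic stem cells, by ChIRP (chromatin isolation by RNA purification), in which biotinylated probes pull down an RNA together with crosslinked chromatin. The only group described here is the L1 ChIRP library, with 1 replicate from cells grown with leukemia inhibitory factor and with no treatment named in the labels. The probes were 59 nt long and the chromatin was sonicated to 2 to 5 kb, per the labels' protocols. The labels name genomic DNA as the molecule but also describe reverse transcription, so which nucleic acid was read is not settled, and binding of L1 RNA at a peak was not shown by these files. The Malat1 and input DNA libraries were not analysed here. The read depth is unknown, and with 1 library the error between replicates is unknown for every value below. Intervals are exact binomial 95% intervals. They treat peaks as independent, which neighbouring peaks are not, and cover counting error only.

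L1 elements are retrotransposons that copy themselves through an RNA. In mammalian genomes they are known to gather in gene-poor, late-replicating chromatin that tends to lie at the nuclear lamina, while gene-dense regions hold fewer of them and more short interspersed elements. Mouse chromosome 4 is known to carry several large gene families in tandem. By gene name, the RefSeq annotation of a later build (GRCm38.p6) lists on this chromosome, in order from the centromere, 22 protein-coding Mup genes (major urinary proteins), 14 Ifna and Ifnb genes (type I interferons), 7 Cyp2j genes and 11 Skint genes (selection and upkeep of intraepithelial T cells), then 10 Cyp4a, Cyp4b and Cyp4x genes (cytochromes P450 that oxidise fatty acids) and 24 Pramel genes. These genes were not placed against the peaks, because their coordinates are of another build.

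The proximal side was about 2 times as dense in peaks as the distal side. It held 13.8 peaks per Mb over 73.0 Mb of span, and the distal side held 6.82 per Mb over 76.1 Mb, a ratio of 2.03 (1.82 to 2.26). The proximal side thus held 66.0% of the peaks (63.6 to 68.4) on 49.0% of the span. Peaks covered 9.27% of the proximal span and 4.53% of the distal span, a ratio of 2.04, so the contrast was as large in covered bases as in number.

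The fall in density did not lie at 76 Mb, and the description of the chromosome as 2 parts holds only for the totals. From 48 to 76 Mb the proximal side held 368 peaks, or 13.1 per Mb. From 76 to 97 Mb the distal side held 287 peaks, or 13.7 per Mb, and these 21 Mb contained 55.3% of all distal peaks. When the distal side was ended at 97 Mb, the ratio of proximal to distal density was 1.01. From 97 to 123 Mb the density was 7.19 per Mb, and from 123 Mb to the last peak it was 1.54 per Mb, with 45 peaks in 29.1 Mb. These limits are ends of runs of bins (under 5 peaks for 40 to 48 Mb, 10 or more for the others) and were chosen after the bins had been seen.

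The boundary itself fell in a gap between peaks of ordinary width. The last peak before it, chr4:75853646-75861080, was 7435 bp wide, and the first after it, chr4:76374620-76381114, was 6495 bp wide. The peak-free stretch between them was 0.51 Mb long. The adjoining bins of 1 Mb held 12 peaks before the boundary and 3 after it, and the next bins outward held 30 and 9.

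**Figure D1:**
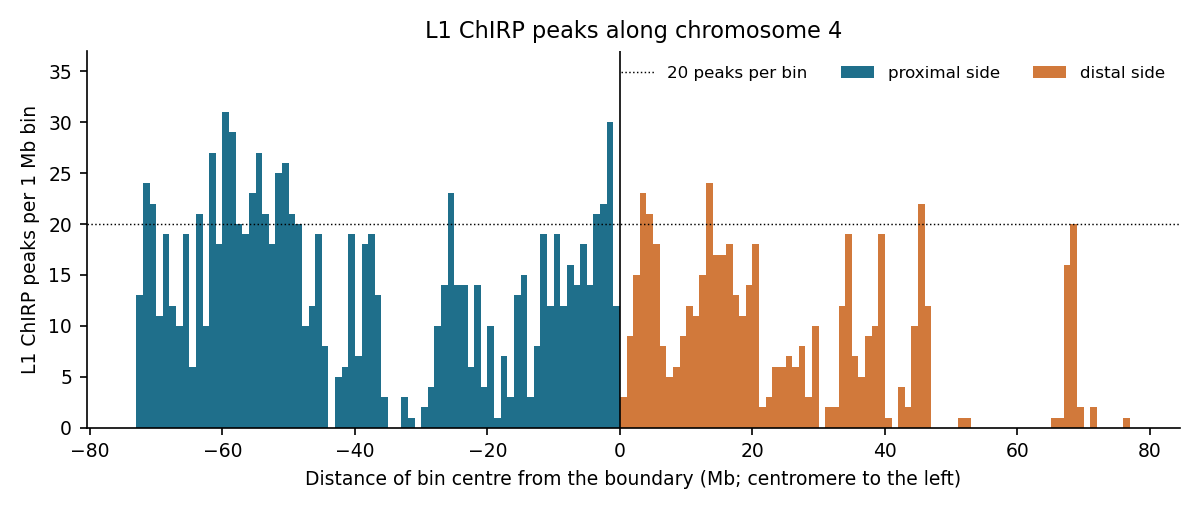
Number of L1 ChIRP peaks in each 1 Mb bin of chromosome 4 (bars, 73 proximal and 77 distal bins) against the distance of the bin centre from the boundary in Mb, with a dotted line at 20 peaks. High bars stand on both sides of the boundary, a dip of low bars lies about 30 Mb before it, and 21 of the 30 bins more than 47 Mb after it are empty, while a pair of bins there together holds 36 peaks.

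In consecutive windows of 10 Mb, the density first rose and then fell with several dips. The first 7.00 Mb of span held 15.9 peaks per Mb. The windows from 10 to 20 Mb and from 20 to 30 Mb were the densest of the chromosome, with 20 and 20.3 per Mb and 14.1% and 14.5% of their bases under peaks. The window from 30 to 40 Mb held 11.4 per Mb and that from 40 to 50 Mb only 3.70, with 37 peaks. A sparse region of the kind seen at the distal end was thus also present inside the proximal side: from 40 to 48 Mb there were 13 peaks, or 1.63 per Mb.

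From there the density climbed again towards the boundary and was lower in the bins just after it. The windows starting at 50, 60 and 70 Mb held 9.60, 13.1 and 16.7 peaks per Mb, the last of them holding bins of both sides, and those starting at 80 and 90 Mb held 12.9 and 11.9. The later windows were all sparser. Those starting at 100, 110 and 120 Mb held 5.60, 7.60 and 4.60 per Mb, the window from 130 to 140 Mb held no peak, and that from 140 to 150 Mb held 4.20 per Mb. The last peak of the chromosome, chr4:152119511-152126518, stood alone, 4943 kb from its nearest neighbour.

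Bins of 1 Mb with 20 or more peaks were mostly proximal. There were 18 among the 73 proximal bins (24.7%) and 5 among the 77 distal bins (6.49%), and they held 42.9% of the proximal and 21.2% of the distal peaks. On the other 18 autosomes together, such bins made up 15.5% of the proximal and 6.84% of the distal bins. A fall was thus also present there, and the distal share of chromosome 4 was close to theirs. On chromosome 4 the median bin held 14 peaks (quartiles 7 and 19) on the proximal side and 4 (0 and 12) on the distal side. The fullest bin of the chromosome was chr4:16000001-17000000 with 31 peaks, which covered 24.0% of it. It was followed by chr4:74000001-75000000 with 30 peaks, just before the boundary, chr4:17000001-18000000 with 29, and chr4:14000001-15000000 and chr4:21000001-22000000 with 27 each.

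The fullest distal bins reached lower numbers and were spread over the side. The bin chr4:89000001-90000000 held 24 peaks, chr4:79000001-80000000 held 23, chr4:121000001-122000000 held 22, chr4:80000001-81000000 held 21 and chr4:144000001-145000000 held 20. In the last of these, peaks were narrow, with a median width of 4549 bp, and covered 9.90% of the bin. In the bin at 121 Mb the median width was 7817 bp and 18.96% was covered. Bins with similar numbers of peaks thus differed in covered bases by about a factor of 2.

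Runs of at least 2 adjoining bins with 20 or more peaks numbered 5 on the proximal side and 1 on the distal side. The sides had 18 and 5 such bins, and a side with more of them has more that can adjoin. The numbers of runs are therefore no separate finding. The longest run, chr4:24000001-28000000, held 92 peaks in 4 Mb. Runs of 3 Mb lay at chr4:16000001-19000000 with 80 peaks, chr4:20000001-23000000 with 71 and chr4:72000001-75000000 with 73. A run of 2 Mb at chr4:4000001-6000000 held 46 peaks. The distal run, chr4:79000001-81000000, held 44 peaks in 2 Mb. At the lower limit of 10 peaks per bin, 19 bins adjoined at chr4:12000001-31000000, with 397 peaks, and 11 bins at chr4:86000001-97000000, with 170 peaks.

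Peak-free stretches accounted for much of the distal span. Stretches of over 1 Mb between neighbouring peaks numbered 6 on the proximal side and 7 on the distal side, but they made up 12.9% of the proximal and 39.0% of the distal span. On the other 18 autosomes together they made up 16.3% and 27.9%, so a rise was also present there. On chromosome 4 the longest of these stretches were distal. After the longest, chr4:128116539-141519634 with 13.4 Mb, came chr4:147176933-152119510 with 4.94 Mb, chr4:122449540-127195476 with 4.75 Mb, chr4:145038515-147095657 with 2.06 Mb and chr4:116596975-118433357 with 1.84 Mb. On the proximal side the longest was chr4:40551680-43135992 with 2.58 Mb, followed by chr4:44493029-46248680 with 1.76 Mb, chr4:31988837-33646260 with 1.66 Mb, chr4:46263371-47557947 with 1.29 Mb and chr4:56748287-57884403 with 1.14 Mb. Of these 5, 3 lay within the sparse region from 40 to 48 Mb. Gaps of the assembly were not removed from the spans, and their share of these stretches was not tested.

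Between 123 Mb and the end of the chromosome the few peaks were gathered in a short island. Of 45 peaks, 36 lay in the 2 Mb from 143 to 145 Mb and 9 lay elsewhere. The island had 18 peaks per Mb. It was picked as a run of bins with 10 or more peaks, so a high density was built into that choice. The 20 Mb before it held 4 peaks, or 0.20 per Mb. Those 4 were chr4:127195477-127199760, chr4:128109980-128116538, chr4:141519635-141529645 and chr4:142526331-142532562, and each lay at least 562 kb from its nearest neighbour. They were 4284, 6559, 10011 and 6232 bp wide, against quartiles of 4261 and 8326 bp for all peaks of this chromosome. Only the 10011 bp peak lay outside these quartiles. The 5 peaks after the island included pairs at chr4:145007091-145038514 and chr4:147095658-147176932, 13.2 and 62.2 kb apart. The island's end at 145 Mb is the edge of a bin, and the first of these pairs lies just past it.

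Although the sides differed in number, their peaks were of similar width. The median was 6461 bp on the proximal side (quartiles 4313 and 8330) and 6345 bp on the distal side (4157 and 8228). The difference was 116 bp, with bounds of -182 and 609 bp from the binomial intervals of both medians, so the counting error allows a difference in either direction. Widths from 6 to 7.5 kb, the range that holds the peaks' most frequent width, made up 23.9% of the proximal peaks (21.3 to 26.6) and 23.1% of the distal (19.6 to 27.0). Peaks wider than 10 kb made up 12.5% on each side, 126 and 65 peaks, and peaks narrower than 2 kb made up 3.96% (2.85 to 5.36) and 4.24% (2.68 to 6.35).

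**Figure D2:**
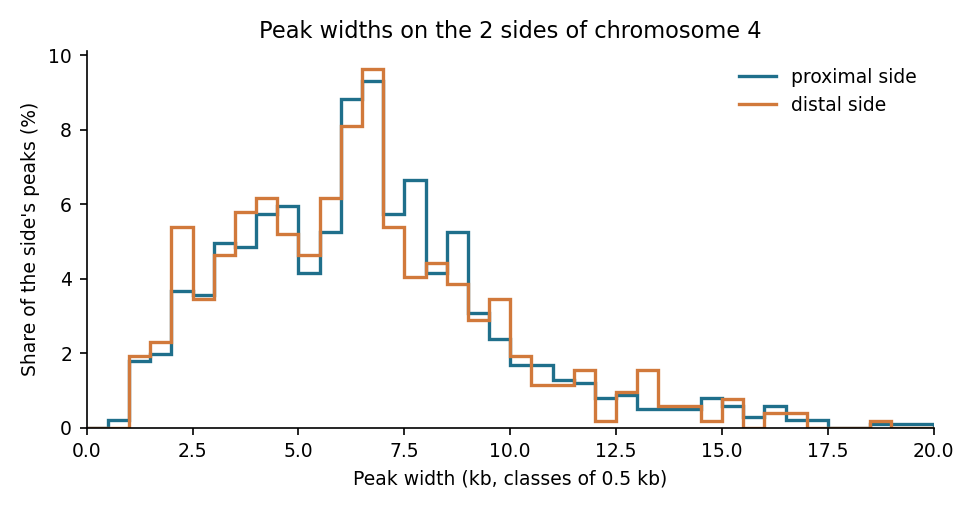
Share of the peaks of each side of chromosome 4 (lines, 1009 proximal and 519 distal peaks) in width classes of 0.5 kb, up to 20 kb, which leaves out 5 wider peaks on each side. Both lines are highest in the class from 6.5 to 7 kb, at 9.32% and 9.63%, and they lie close together over most of the range.

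Among windows of 10 Mb, each with far fewer peaks than a side, the median width ranged from 5768 bp in the window from 30 to 40 Mb to 7781 bp in that from 100 to 110 Mb. Peaks wider than 10 kb were frequent both in dense and in sparse windows: they made up 21.6% of the 111 peaks before 10 Mb, 18.7% of the 203 peaks from 20 to 30 Mb, 21.6% of the 37 peaks from 40 to 50 Mb and 23.9% of the 46 peaks from 120 to 130 Mb, against 5.39% of the 167 peaks from 70 to 80 Mb. Across the 98 bins with at least 5 peaks, the Spearman correlation of peak number with median width was 0.16 (0.22 over 60 proximal and 0.10 over 38 distal bins). The bins share 1 library and neighbouring bins are alike, so this is a description only.

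The widest peak of the chromosome, at 41011 bp, was chr4:115332608-115373618 on the distal side, and no peak of the other 18 autosomes exceeded 38835 bp. The next widest distal peaks were chr4:82413771-82442492 at 28722 bp and chr4:103260480-103283653 at 23174 bp. On the proximal side the widest were chr4:69441594-69469236 at 27643 bp, chr4:23122742-23148442 at 25701 bp and chr4:18983352-19008557 at 25206 bp. Their surroundings differed: the bin of the 41011 bp peak held 19 peaks, with another only 1.58 kb away, while the bin of the 28722 bp peak held 8, the nearest of them 22.9 kb away.

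Short gaps between neighbouring peaks made up similar shares on both sides, and long gaps were more frequent on the distal side. From the end of a peak to the start of the next, the median gap measured 31.4 kb on the proximal side (27.0 to 33.8) and 33.2 kb on the distal side (28.7 to 39.2), a ratio of 1.06, although the mean gap was 65.6 kb against 139.6 kb. With peaks closer than 5 kb merged, the medians were 39.9 and 48.7 kb, so the size of this difference depends on how finely regions were split into peaks. Gaps under 10 kb made up 28.0% of the 1008 proximal gaps (25.2 to 30.9) and 27.2% of the 518 distal gaps (23.4 to 31.3). The sides parted among the long gaps. This is a description only, because density and a long distal peak-free stretch were used to choose the chromosome. Those over 100 kb made up 17.1% of the proximal (14.8 to 19.5) and 24.1% of the distal gaps (20.5 to 28.1), and those over 500 kb made up 1.39% (0.76 to 2.32) and 3.86% (2.37 to 5.90). The 20 distal gaps over 500 kb took up 50.8% of the distal span, and the 14 proximal ones took up 19.97% of the proximal span.

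**Figure D3:**
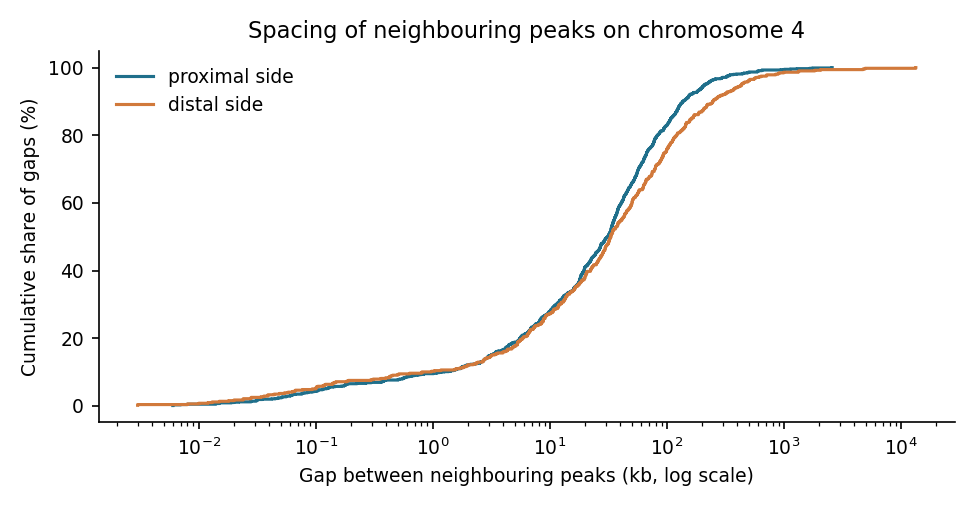
Cumulative share of gaps between neighbouring peaks (lines, 1008 proximal and 518 distal gaps) against gap length in kb on a log axis. The lines overlap up to about the medians of 31.4 and 33.2 kb, and separate above that, the distal line reaching 13.4 Mb.

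The share of peaks with a close neighbour differed little between the sparse and the dense side. Of the proximal peaks, 476 of 1009 (47.2%, 44.1 to 50.3) had another peak within 10 kb, and of the distal peaks 239 of 519 (46.1%, 41.7 to 50.4). The difference was 1.13 percentage points, with bounds of -6.39 and 8.61 from the binomial intervals of both shares. With peaks closer than 1 kb merged, the shares were 35.5% and 31.1%, a difference of 4.37 points. Within 50 kb the shares were 84.4% (82.1 to 86.6) and 80.7% (77.1 to 84.0). Peaks more than 100 kb from any other made up 5.55% of the proximal (4.22 to 7.15) and 8.67% of the distal peaks (6.39 to 11.4).

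Peaks linked by gaps under 10 kb formed sets of similar sizes on both sides. Single peaks made up 52.8% of the proximal and 53.9% of the distal peaks. These are the peaks without another within 10 kb, so the values restate the shares given above. Sets of 4 or more made up 8.62% and 8.86%. The largest sets had 8 peaks on each side: chr4:74283505-74364235, 80.7 kb long with 68.8% under peaks, and chr4:115286420-115400330, 114 kb long with 84.2% under peaks. The latter contains the 41011 bp peak. The next largest had 6 peaks each, at chr4:4924524-4995286 and chr4:120958288-121006214.

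Close neighbours were also counted among bins of like peak number. In bins of 20 or more peaks the share with another peak within 10 kb was 59.1% on both sides, in 18 proximal and 5 distal bins. In bins of 10 to 19 peaks it was 41.7% on the proximal side (37.3 to 46.1, 34 bins) and 50.9% on the distal side (44.9 to 56.8, 20 bins). In bins of 1 to 9 peaks it was 15.6% (8.32 to 25.6, 17 bins) and 23.0% (15.8 to 31.4, 29 bins). The distal share was thus the higher in bins of 1 to 9 and of 10 to 19 peaks. The intervals overlap within each class, but overlap does not show that the shares are alike. The binomial intervals are too narrow for clustered peaks, and no test was made. Median widths in these classes lay between 6270 and 6624 bp on both sides.

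Set against the other 18 autosomes, each divided at the midpoint of its span, chromosome 4 had the highest ratio of proximal to distal density but for 2 others. Chromosome 11 had a ratio of 3.38 and chromosome 15 had 2.10, and the other 16 ranged from 0.71 on chromosome 16 to 1.80 on chromosome 7. The proximal side was denser on 15 of the 18, with a median ratio of 1.46. The proximal 13.8 peaks per Mb of chromosome 4 were exceeded only by the 15.8 of chromosome 3. Its distal 6.82 per Mb were at place 12 of 19, within the range of 2.37 to 10.3 of the other distal sides. Both densities were used to choose the chromosome, and how much either side adds to its ratio was not tested. Chromosomes are not replicates, and no test was made of these orders.

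**Figure D4:**
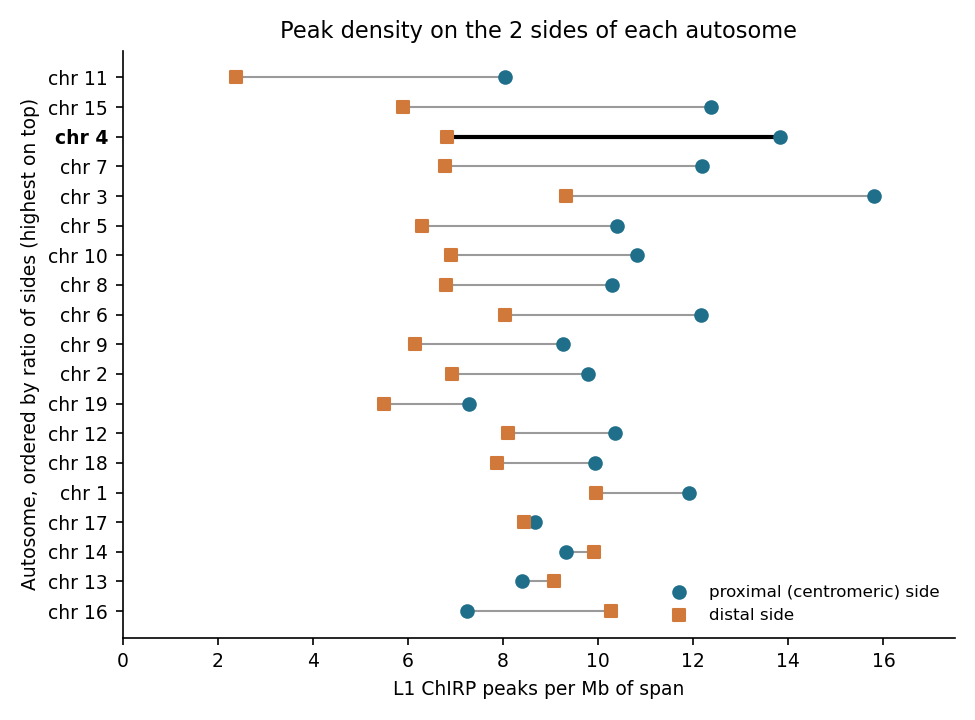
L1 ChIRP peaks per Mb of span on the proximal (circles) and distal (squares) side of each of 19 autosomes, ordered by the ratio of the 2 values, with chromosome 4 divided at its boundary and drawn in black. Chromosome 4 stands at place 3 from the top, at 13.8 and 6.82 peaks per Mb, below chromosomes 11 and 15.

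The chromosome as a whole was rich in peaks and also rich in empty bins. Its 10.2 peaks per Mb were at place 3 of 19 autosomes, its 15.3% of bins with 20 or more peaks at place 4, and its 18% of bins without a peak also at place 4. The other 18 autosomes together had 9.06 peaks per Mb, 11.2% of bins with 20 or more peaks and 11.2% without a peak. Of the bins without a peak, 4 were proximal and 23 distal. As shares these were 5.48% and 29.9%, against 8.33% and 14.0% on the proximal and distal sides of the other 18 autosomes together. By number, the distal sides of chromosomes 5 and 11 held more, 25 and 27. Such numbers depend on length: chromosome 19 had 9 empty bins on a distal side of only 29.1 Mb. Peak-free stretches over 1 Mb took up 26.2% of the span of chromosome 4, the share at place 6 of 19, although the longest of them had no equal on another autosome, where none exceeded 9.30 Mb.

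Taken as a whole, chromosome 4 had the highest share of closely spaced peaks among the autosomes. With 46.8% of its peaks within 10 kb of another (44.3 to 49.3), it stood highest of 19, ahead of chromosomes 7 and 17 at 44.4% each. Its interval includes 44.4%, so its place above them is within counting error. On chromosome 4 the share also rose with the number of peaks per bin, and the chromosome was chosen by density. The other 18 autosomes together had 39.7% (39.0 to 40.4). On those autosomes the share was 42.3% on the proximal and 36.0% on the distal sides, a fall seen on 14 of 18, with a median of 5.31 percentage points. Whether this fall differs from that of 1.13 points on chromosome 4 was not tested. The proximal side of chromosome 4, at 47.18%, was not the highest. Chromosomes 7, 17 and 3 had 52.5%, 51.4% and 47.21% there. Its distal side, at 46.1% (41.7 to 50.4), was the highest distal side, ahead of chromosome 18 at 43.5%, which lies inside that interval. The order was not examined with close peaks merged. The median width of chromosome 4, 6421 bp, was at place 12 of 19 and close to the 6366 bp of the other autosomes.

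**Figure D5:**
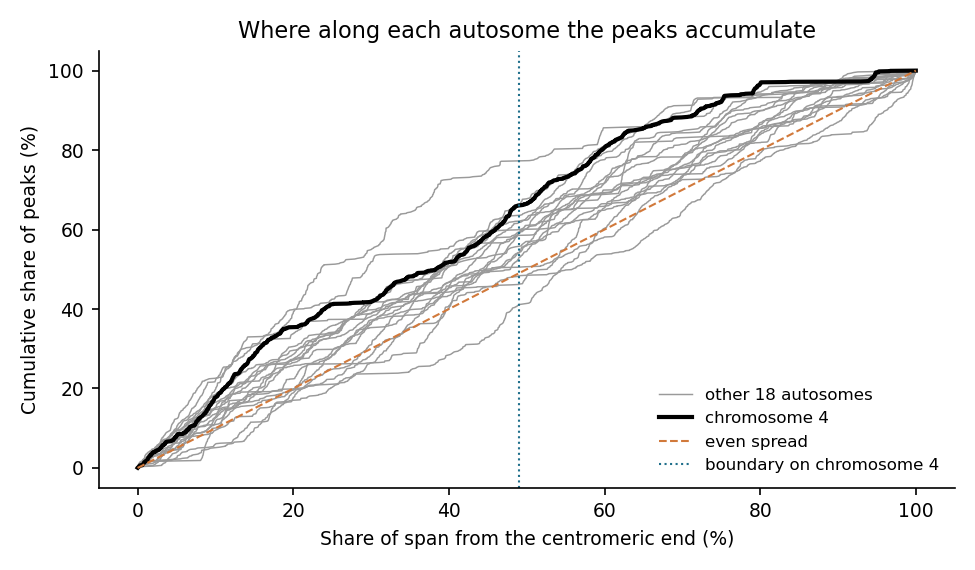
Cumulative share of peaks against the share of the span from the centromeric end, for chromosome 4 (black) and the other 18 autosomes (grey lines), with a dashed line for an even spread and a dotted line at the boundary on chromosome 4. Chromosome 4 reached 50% of its peaks at 38.3% of its span and 95% at 79.2%, where the grey lines reached 95% between 80.5% and 99.2%.

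The peaks of chromosome 4 accumulated early along its length. Of them, 25% lay before 23.0 Mb, 50% before 60.1 Mb, 75% before 87.6 Mb and 95% before 121 Mb. The 95% point came at 79.2% of the span, earlier than on any of the other 18 autosomes (80.5% to 99.2%), and the 50% point at 38.3%, with 2 autosomes earlier. The long distal peak-free stretch by which the chromosome was chosen lies after the 95% point, so this early place is no separate finding. Neighbouring bins were alike in peak number on both sides, with a Spearman correlation of 0.52 over 72 proximal pairs and 0.74 over 76 distal pairs. The distal value includes the long runs of empty bins, the longest of which, chr4:129000001-141000000, spanned 12 bins.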

How the data were processed

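One L1 ChIRP peak list, deposited by the authors, was analysed. Its 3 columns place each peak on a chromosome by start and end in bp and hold no height or other value. CASAVA, Bowtie2 2.2.2, MACS 1.4.2 and mm9 are named per the submitters' processing notes, without roles or settings. Nothing used here states the control for calling or how reads from repeats were placed, and both affect which L1 copies carry a peak. Positions are printed from 1. Densities are peaks per Mb, and a chromosome's span is bounded by its outermost peaks. A peak belongs to the 1 Mb bin and the side of its midpoint. Bins run between those of the outermost peaks. Other autosomes were divided at the midpoint of their span. Python 3.11.15, numpy 2.4.6, pandas 2.3.3, scipy 1.17.1 and matplotlib 3.10.9 were used, and functions were tested on simulated data. The members, boundary and rules were chosen with earlier results of these data known. Named items were the 5 fullest bins and 5 longest peak-free stretches of each side, runs of bins with 20 or more peaks, the 3 widest peaks and 2 largest sets of each side, and the peaks at the boundary; the peaks after 123 Mb, the runs of 10 or more peaks and the limits at 40, 48, 97, 123, 143 and 145 Mb were chosen after their values were seen. No sequence or gene position of mm9 was used here, so the planned naming of genes was not run.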

Additional observations from a re-analysis of the deposited data

How the results depend on the processing

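Of 41 alternatives, 23 stayed within the counting interval of the value (for a count, within 1.5 times; for an order, equal), 18 moved further, and none turned a direction; 4, the boundaries at 97 and 123 Mb and the ends of the distal side there, were chosen after seeing the data. The density ratio of 2.03 was 1.72 with the boundary at 70 Mb, 2.27 at 82 Mb, 3.28 at 97 Mb and 7.999 at 123 Mb. With empty bins left out it was 1.497, with the longest peak-free stretch left out 1.67, and 2.38 without the densest 10% of bins of each side. With the distal side ended at 123 Mb it was 1.37, and at 97 Mb 1.01. The covered share ratio was 1.68 without the longest peak-free stretch. At a threshold of 15 peaks, 32 proximal and 15 distal bins passed, and with bins shifted by 0.5 Mb 8 distal bins held 20 or more. Bins without a peak numbered 15 and 57 in bins of 0.5 Mb and 0 and 8 in bins of 2 Mb. By covered bases chromosome 4 stood 2 of 19 in the order of ratios. The differences in width, gap and close neighbours stayed within their wide counting bounds in all 10 of their alternatives, but the gap difference went from -1.79 to -8.82 kb with peaks closer than 5 kb merged and to -6.11 kb with those closer than 1 kb merged, and the difference in the share with a neighbour within 10 kb from 1.13 to 4.37 points with the latter, and to 3.71 points at 50 kb. The width difference of 116 bp was 31.5 to 115 bp. No paired analysis was possible because no group has a second library. Read depth is unknown, so a region without a peak may hold signal below detection.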
